A study of Homo sapiens with 28 samples.

Results

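The human embryonic stem cell line H9 was differentiated towards neural progenitors with SOX1 intact or knocked out. SOX1 encodes a SOX B transcription factor that comes on early in neural tissue. The comparison described here is that of SOX1-/- cells (KO) under the culture label CT1.0 with SOX1-/- cells under the label IWP2, both on day 8. It was chosen by the 4 libraries it needs, KO lines 26 and 48 under each label, which are 4 of the 28 libraries in the data set, and by a filter that kept a gene if its TPM, a transcript level scaled for transcript length and library total, was at least 1 in 2 or more of the 4. Of 58219 genes, 20524 passed and were tested.

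The other groups used for comparison were KO under the label CT0.4 on day 8, KO under CT1.0 and IWP2 on day 4, and wild type cells (WT, lines 1 and 2) under CT1.0 and IWP2 on day 8. Each group holds 2 libraries. IWP2 is known as an inhibitor of WNT secretion, while the sources used here neither spell out CT nor give its number a unit. The numbers 26, 48, 1 and 2 were read as line names, so a line gives 1 library per group. Nothing in the labels says whether the lines came from separate clones, so p-values measure only the spread between libraries of a group. That spread was pooled over all 28 libraries in 14 groups, not only those compared.

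The early neural tube is patterned along its length by graded signals: tissue that receives little WNT signal forms forebrain, and more WNT signal gives midbrain and hindbrain. Between midbrain and hindbrain lies the midbrain-hindbrain boundary, a signalling centre that secretes FGF8 and WNT1 and expresses EN1, and behind it HOX genes come on in order. WNT ligands need PORCN, which attaches a lipid and is the known target of IWP2, and WLS, which carries the ligand to the cell surface. The dorsal edge of the tube, the roof plate, secretes WNT and BMP ligands and expresses MSX, LMX1A and GDF7.

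KO cells under CT1.0 were low in forebrain transcription factors and high in genes of midbrain, boundary, roof plate and the most anterior HOX region, when set against KO cells under IWP2. SIX3, LHX2 and RAX were below 0.5 TPM in both CT1.0 libraries and at 34.6 to 151 TPM in the IWP2 libraries. HOTAIRM1, WNT1 and WLS stood at 57.6 to 248 TPM in the CT1.0 libraries, against 0.0699 to 3.32 TPM in the IWP2 libraries. Every difference below is CT1.0 minus IWP2 on the log2(TPM + 1) scale, which understates the change of low genes, with its standard error and an adjusted p from limma, and a gene is called at an adjusted p under 0.05.

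Of the 20524 genes, 6079 were called, which is 29.6%: 1089 were higher under CT1.0 (5.31%) and 4990 were lower (24.3%). That split rests on how the columns are scaled. Genes for the proteins of the ribosome took 31.7% and 29.0% of all TPM in the CT1.0 libraries of lines 26 and 48, against 18.4% and 17.5% in the IWP2 libraries. Of 83 such genes tested, 76 were called higher and 0 lower, with a median of 0.73, and in WT the share was 22.6% and 24.2% under CT1.0 against 17.1% and 17.8% under IWP2. The median over all 20524 genes was -0.23. After median-ratio scaling of the columns it was 0.01, and 3917 genes were called (19.1%), 1847 higher (9.00%) and 2070 lower (10.1%). With ribosomal protein and mitochondrial genes left out, 3990 genes were called (19.5%), 7.54% higher and 12.0% lower. A difference of at least 1 was reached by 1720 called genes (8.38%), 2.81% higher and 5.57% lower, and the libraries of the labels did not overlap in 61.2% of the genes tested. Differences are therefore to be read relative to -0.23, and the part of the ribosomal share in them was not tested. The lines also weighed on the count: it was 3398 without the CT1.0 library of line 26 and 3852 without the IWP2 library of line 48, and a fit of only the 4 libraries called 1102 genes. TPM keeps no read depth, so counting error is unknown, and in bulk RNA fewer cells of a type and less RNA per cell cannot be told apart.

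**Figure D1:**
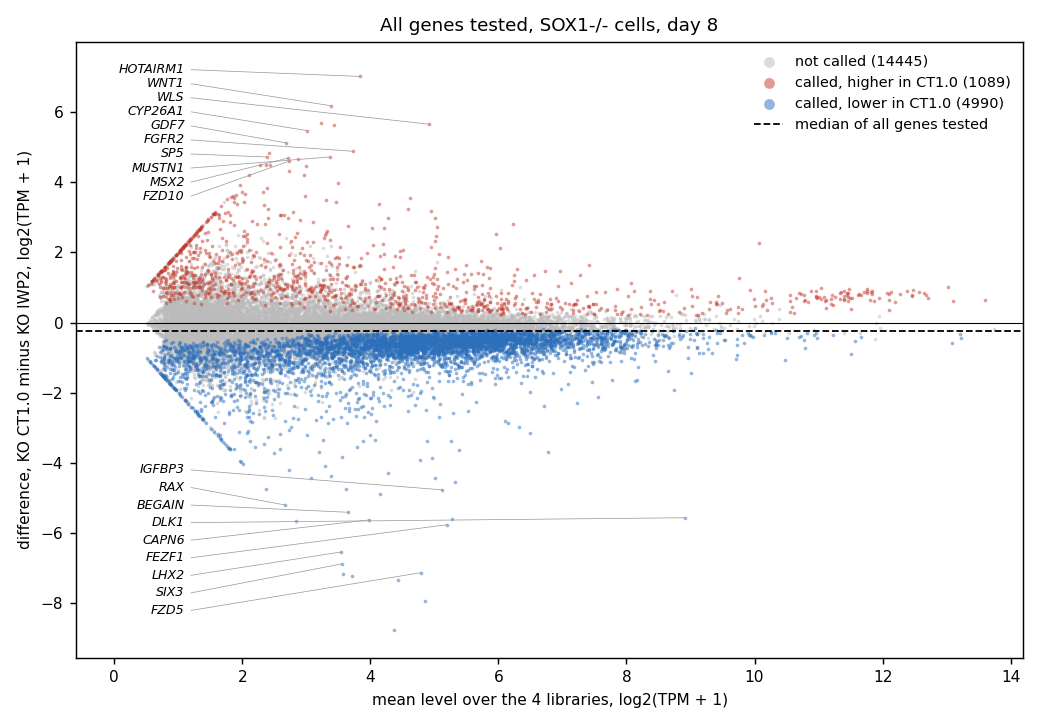
Difference between KO CT1.0 and KO IWP2 on day 8 for the 20524 genes tested, against the mean level over the 4 libraries; each point is a gene, coloured if called (1089 higher, 4990 lower), and the dashed line is the median of all genes, -0.23. The 10 highest and 9 of the 10 lowest genes by the naming rule are labelled; other points as extreme carry no label, and points in straight edges at the left are genes near 0 TPM in 1 of the groups.

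SOX1, the targeted gene (chr13:112067647-112070488, GRCh38, plus strand), was low in all 4 libraries. It had 1.14 and 2.77 TPM in KO CT1.0 lines 26 and 48, against 1.96 and 2.77 TPM in KO IWP2 lines 26 and 48, a difference of -0.24 ± 0.37 that was not called (adjusted p = 0.689). WT cells held 72.1 and 79.4 TPM under CT1.0 and 10.6 and 9.90 TPM under IWP2. The labels do not say which part of SOX1 was changed, so reads from outside that part may remain.

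The neural progenitor label could be set against NES, an intermediate filament gene of neural progenitors. NES had 214 and 410 TPM in KO CT1.0, against 347 and 399 TPM in KO IWP2, and its difference of -0.33 ± 0.29 was not called (adjusted p = 0.45). SOX2, a SOX B factor of neural and pluripotent cells, was present at 174 and 216 TPM in CT1.0 and fell relative to the 391 and 403 TPM in IWP2 (-1.03 ± 0.12, adjusted p = 8.13e-06). PAX6, a regulator of forebrain, eye and spinal cord progenitors, had 6.53 and 19.4 TPM in CT1.0, against 71.1 and 66.1 TPM in IWP2 (-2.49 ± 0.34, adjusted p = 4.47e-05). Of 14 progenitor genes listed, all tested, 2 were higher and 7 lower, with a median of -0.44; the counts after scaling were 3 and 5.

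The forebrain list moved most. Of 16 genes listed, 11 passed the filter, 10 of them were lower in CT1.0 and 0 higher, and their median was -4.21 beside -0.23 for all genes. The filter itself bears on the counts and medians of this and the other lists. Over all genes, 704 reached 1 TPM in both IWP2 libraries and in no CT1.0 library, and 519 the reverse. A gene that passed through 1 label alone, as SIX3, LHX2 and RAX did through IWP2, had its direction set by that. SIX3 (chr2:44941898-44946077, plus strand), which represses WNT genes in the anterior forebrain, had 0.027 and 0.142 TPM in KO CT1.0, against 151 and 105 TPM in KO IWP2 (-6.88 ± 0.23, adjusted p = 3.64e-12). LHX2, needed for eye and cortex, had 0.0239 and 0.427 TPM in CT1.0, against 99.0 and 125 TPM in IWP2. For these genes the groups lay far apart, and the lines of a group close together.

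RAX, the eye field factor, gave the same picture at a lower level: 0.0414 and 0.0597 TPM in CT1.0, against 34.6 and 40.8 TPM in IWP2. FEZF1, a repressor of the anterior forebrain, did not vanish: it kept 5.64 and 2.71 TPM in CT1.0, against 294 and 245 TPM in IWP2 (-5.76 ± 0.26, adjusted p = 1.82e-10). FEZF2, its close relative, was low under both labels, with 0.614 and 1.67 TPM in CT1.0 and 6.12 and 8.88 TPM in IWP2 (-2.02 ± 0.36, adjusted p = 0.000447). EMX2, a cortical factor, was the 1 listed gene tested and not called, with 4.09 and 1.51 TPM in CT1.0 and 3.32 and 2.15 TPM in IWP2; its difference of -0.05 became 0.15 after scaling.

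Genes of other kinds, not on the forebrain list, were among the 10 lowest as well. FZD5, a WNT receptor of the forebrain and eye, had 0.852 and 1.97 TPM in CT1.0, against 349 and 305 TPM in IWP2 (-7.12 ± 0.23, adjusted p = 2.37e-12). DLK1, a secreted NOTCH ligand relative, had 49.9 and 95.3 TPM in CT1.0, against 3260 and 3350 TPM in IWP2 (-5.56 ± 0.45, adjusted p = 1.53e-07). CAPN6, BEGAIN and IGFBP3, a calpain-family gene, a synaptic scaffold gene and a binding protein for insulin-like growth factors, were also among the 10 lowest, with differences of -5.62, -5.40 and -4.77. In these 3 genes the CT1.0 libraries stood between 0.443 and 8.87 TPM and the IWP2 libraries between 75.2 and 192 TPM.

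**Figure D2:**
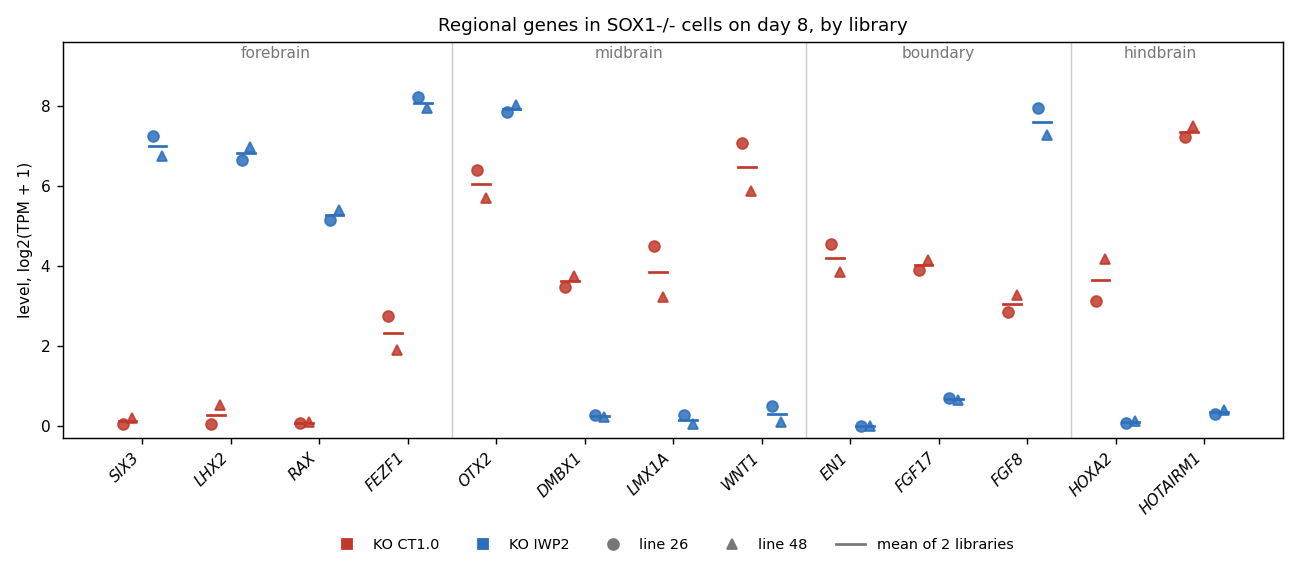
Levels of 13 regional genes in the 4 KO libraries of day 8, as log2(TPM + 1); circles are line 26, triangles line 48, red CT1.0, blue IWP2, and bars the mean of 2 libraries. The 4 forebrain genes are high in IWP2 and at or near 0 in CT1.0 (FEZF1 at 5.64 and 2.71 TPM), the reverse holds for WNT1, EN1, FGF17 and the HOX genes, and OTX2 and FGF8 stand out as lower in CT1.0 within their regions.

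Midbrain genes were mostly higher. Of 10 listed, 9 passed the filter, 7 were higher and 1 lower, and the median was 3.24. DMBX1, a homeobox gene of the midbrain, had 10.01 and 12.4 TPM in KO CT1.0, against 0.194 and 0.162 TPM in KO IWP2 (3.37 ± 0.29, adjusted p = 2.96e-07). LMX1A and LMX1B, related LIM homeobox genes of the roof plate and of midbrain dopamine neurons, differed in how the lines behaved. LMX1A had 21.3 TPM in line 26 and 8.35 TPM in line 48 under CT1.0, against 0.191 and 0.0272 TPM under IWP2 (3.71 ± 0.38, adjusted p = 2.06e-06). LMX1B had 13.6 and 13.8 TPM under CT1.0, against 0.157 in each IWP2 library (3.67 ± 0.34, adjusted p = 7.33e-07).

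The member that fell was OTX2, the homeobox gene that specifies both forebrain and midbrain. OTX2 had 82.6 and 50.7 TPM in CT1.0, against 229 and 256 TPM in IWP2 (-1.89 ± 0.37, adjusted p = 0.000951). It was therefore lower but still well expressed, unlike SIX3. TAL2, a midbrain transcription factor, was not called, with 1.30 and 2.31 TPM in CT1.0 and 0.681 and 0.462 TPM in IWP2.

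Genes of the midbrain-hindbrain boundary split. Of 10 listed, 7 passed, 5 were higher and 1 lower, and the median was 1.81. WNT1 (chr12:48978453-48981676, plus strand), the boundary and roof plate WNT ligand, had 132 and 57.6 TPM in CT1.0, against 0.396 and 0.0699 TPM in IWP2 (6.17 ± 0.37, adjusted p = 6.45e-09). EN1 (chr2:118842171-118847678, minus strand), a homeobox gene of the boundary region, had 22.3 and 13.4 TPM in CT1.0 and was listed at 0 in both IWP2 libraries (4.19 ± 0.38, adjusted p = 5.53e-07). That difference depends on the pseudocount and was 7.44 with 0.1. FGF17, an FGF ligand of the boundary, had 13.8 and 16.5 TPM in CT1.0, against 0.622 and 0.566 TPM in IWP2 (3.33 ± 0.25, adjusted p = 5.86e-08).

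FGF8, the ligand best known from the boundary but also made at the anterior rim of the forebrain, went the other way. It had 6.14 and 8.61 TPM in CT1.0, against 245 and 153 TPM in IWP2 (-4.55 ± 0.34, adjusted p = 5.9e-08). PAX8, a paired-box gene of the boundary and inner ear, could not be placed: it had 29.3 and 26.9 TPM in CT1.0, against 39.2 and 7.66 TPM in IWP2. Its difference of 0.64 was not called (adjusted p = 0.374). Without the IWP2 library of line 26 it was 1.75 and called (adjusted p = 0.00565), and without that of line 48 it was -0.47.

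Genes that FGF signalling is known to switch on were mostly lower. Of 12 feedback and target genes listed, all tested, 10 were lower and 1 higher, with a median of -1.80. SPRY1, an inhibitor of FGF receptor signalling, had 6.16 and 5.75 TPM in CT1.0, against 170 and 129 TPM in IWP2 (-4.42 ± 0.19, adjusted p = 9.47e-11). ETV4 and ETV5, ETS factors induced by FGF, had differences of -3.20 ± 0.21 (adjusted p = 1.63e-08) and -2.34 ± 0.39 (adjusted p = 0.000288). SPRY4, another Sprouty inhibitor, had 4.02 and 7.35 TPM in CT1.0, against 46.4 and 41.8 TPM in IWP2. DUSP6, an ERK phosphatase, was not called, at 38.2 and 49.9 TPM in CT1.0 and 58.5 and 31.2 TPM in IWP2. FGFR2, a receptor for FGFs that is not on this list, was among the 10 highest genes, with 64.4 and 77.4 TPM in CT1.0, against 1.55 and 1.32 TPM in IWP2 (4.88 ± 0.14, adjusted p = 6.02e-13).

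Of 17 hindbrain and HOX genes listed, only 5 passed the filter, and 3 of these were higher. HOTAIRM1 (ENSG00000233429, chr7:27095647-27100265, plus strand), a long RNA at the anterior end of the HOXA cluster, had the highest called difference in favour of CT1.0 among the genes that the naming rule admits. It had 147 and 178 TPM in KO CT1.0, against 0.217 and 0.307 TPM in KO IWP2 (7.01 ± 0.57, adjusted p = 1.73e-07). HOXA2 (chr7:27100354-27102811, minus strand), a HOX gene of the hindbrain, lies beside it and had 7.60 and 17 TPM in CT1.0, against 0.0445 and 0.0904 TPM in IWP2 (3.54 ± 0.53, adjusted p = 9.42e-05). The annotated spans of HOTAIRM1 and HOXA2 do not overlap. Whether reads were assigned by strand is not given, so for HOTAIRM1 reads from the opposite strand within its span cannot be told apart from its own.

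GBX2, which opposes OTX2 at the boundary, had 2.08 and 4.19 TPM in CT1.0 and 1.01 and 0.990 TPM in IWP2, and its difference of 0.999 was not called (adjusted p = 0.064). GBX2 was called with protein-coding genes only (adjusted p = 0.0353) and with ribosomal protein and mitochondrial genes left out (1.28, adjusted p = 0.0429). HOXB3 was not called either, with 0.265 and 1.51 TPM in CT1.0 and 0.258 and 2.04 TPM in IWP2, higher in line 48 under both labels. Among the HOX genes listed, HOXA2 was the only one called.

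Retinoic acid is a further posteriorising signal, and its handling genes gave a mixed result: of 16 listed, 10 passed, 4 were higher and 1 lower, with a median of 0.33. CYP26A1, which degrades retinoic acid, had 39.5 and 69.3 TPM in CT1.0, against 0.128 and 0.289 TPM in IWP2 (5.47 ± 0.55, adjusted p = 1.6e-06). CRABP1, a retinoic acid binding protein, had 1593 and 3524 TPM in CT1.0, against 478 and 503 TPM in IWP2 (2.27 ± 0.33, adjusted p = 6.94e-05). The receptor RARB (1.35) and the synthesis enzyme ALDH1A2 (1.55) were called, but both calls rested on line 48. Without the CT1.0 library of line 48 their adjusted p was 0.179 and 0.109, and without the IWP2 library of line 26 or 48 that of RARB was 0.0535 or 0.0979. CRABP2 and RARG were not called, at -0.28 and 0.11.

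WNT ligands and their helpers were mostly higher in the cells under CT1.0. Of 22 listed, 16 passed, 10 were higher and 2 lower, with a median of 1.90. WLS, the carrier of WNT ligands, had 248 and 184 TPM in KO CT1.0, against 3.25 and 3.32 TPM in KO IWP2 (5.65 ± 0.30, adjusted p = 1.46e-09). WNT10B had 31.2 and 17.5 TPM in CT1.0 and 0.19 and 0 TPM in IWP2 (4.48 ± 0.34, adjusted p = 6.84e-08). WNT8B, a ligand of the dorsal forebrain and midbrain, had 5.37 and 6.06 TPM in CT1.0, against 0.0818 and 0.167 TPM in IWP2 (2.58 ± 0.24, adjusted p = 9.09e-07).

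Not every ligand followed. WNT5B, a ligand of the noncanonical kind, had 8.88 and 3.96 TPM in CT1.0, against 97.5 and 113 TPM in IWP2 (-3.92 ± 0.28, adjusted p = 4.33e-08). PORCN, the enzyme that IWP2 is known to block, had 14.6 and 11.3 TPM in CT1.0 and 15.6 and 20.7 TPM in IWP2 and was not called (-0.45, adjusted p = 0.118). WNT3 was not called either, at 4.65 and 5.71 TPM in CT1.0 and 4.60 and 3.75 TPM in IWP2. The frizzled receptors named by the rule swapped: FZD10 had 27.9 and 35.2 TPM in CT1.0, against 0.349 and 0.337 TPM in IWP2 (4.59 ± 0.19, adjusted p = 6.35e-11), while FZD5 was lower as given above.

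Genes known to be switched on by WNT through beta-catenin were higher on balance: of 16 listed, 13 passed, 9 were higher and 2 lower (1 after scaling), with a median of 1.38. SP5, a zinc finger gene and direct WNT target, had 21.8 and 30.3 TPM in CT1.0, against 0.0347 and 0 TPM in IWP2 (4.71 ± 0.55, adjusted p = 7.9e-06). APCDD1 and TNFRSF19, a WNT inhibitor at the membrane and a receptor of the TNF family, had differences of 3.48 ± 0.39 (adjusted p = 5.88e-06) and 2.92 ± 0.27 (adjusted p = 7.33e-07). NKD1, a feedback inhibitor, had 24.3 and 21.3 TPM in CT1.0, against 3.02 and 3.16 TPM in IWP2. NKD2 and TCF7 were not called, at -0.29 and -0.11, and TCF7 was 0.10 after scaling.

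The 250 bases before the start of SP5 and of APCDD1 are shown because these were the highest target genes with a promoter window in the RefSeq table used (GRCh38.p14), and they contrast. Capitals mark the letters CTTTGA, the core that TCF and LEF factors bind, or TCAAAG, the same on the other strand. Matches of the 2 spellings cannot overlap.
SP5, chr2:170715087-170715336, plus strand: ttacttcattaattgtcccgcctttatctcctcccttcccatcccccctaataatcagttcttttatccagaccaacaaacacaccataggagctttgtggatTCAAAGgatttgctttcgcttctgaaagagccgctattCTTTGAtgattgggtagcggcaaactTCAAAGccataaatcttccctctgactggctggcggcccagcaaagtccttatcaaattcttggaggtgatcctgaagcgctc
APCDD1, chr18:10454385-10454634, plus strand: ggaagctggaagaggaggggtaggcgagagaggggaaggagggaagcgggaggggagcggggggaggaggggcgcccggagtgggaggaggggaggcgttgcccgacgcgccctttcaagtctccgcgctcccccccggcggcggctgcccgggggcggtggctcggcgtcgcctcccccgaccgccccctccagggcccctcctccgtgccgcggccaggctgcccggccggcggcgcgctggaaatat

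The SP5 window holds 3 matches, starting 147 to 83 bases before the gene's start, and the APCDD1 window holds 0. Of the 9 target genes called higher, 5 had a window in the table and 1 of them, SP5, held the letters. Over all 35116 windows of this length, 3937 (11.2%) held at least 1 match and 23 (0.0655%) held 3 or more. A match is a description of the letters only, and a window without one says nothing about binding elsewhere.

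WNT antagonists were lower where called before scaling. Of 13 listed, 8 passed, and 5 were lower and 0 higher (4 and 1 after scaling), with a median of -1.02. SHISA2, which holds back WNT and FGF receptors inside the cell, had 1.81 and 1.01 TPM in CT1.0, against 37.0 and 42.2 TPM in IWP2 (-4.09 ± 0.32, adjusted p = 1.04e-07). SFRP1 and FRZB, decoy proteins that bind WNT ligands, had 53.2 and 84.8 TPM and 24.8 and 23.5 TPM in CT1.0, against 347 and 317 TPM and 86.2 and 81.9 TPM in IWP2. SFRP2, of the same family, fell less, with a difference of -1.24 ± 0.22 (adjusted p = 0.000471). SFRP4 and SOSTDC1 were not called, at -0.81 and -0.61.

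Roof plate and dorsal genes were higher or not called. Of 12 listed, 11 passed, 7 were higher and 0 lower, with a median of 3.22. GDF7, a BMP ligand of the roof plate, had 55.8 and 24.1 TPM in KO CT1.0, against 0.093 and 0.086 TPM in KO IWP2 (5.12 ± 0.28, adjusted p = 2.1e-09). MSX2 and MSX1, homeobox genes induced by BMP, were higher by 4.68 ± 0.33 (adjusted p = 4.13e-08) and 4.46 ± 0.33 (adjusted p = 6.84e-08). MSX1 had 36.7 and 36.2 TPM in CT1.0, against 0.487 and 0.941 TPM in IWP2. The ZIC genes ZIC1, ZIC2 and ZIC4, zinc finger factors of the dorsal tube, were not called, at 0.15, 0.33 and 0.48; ZIC2 was called after scaling (0.60, adjusted p = 0.0303) and with ribosomal protein and mitochondrial genes left out (adjusted p = 0.0457). All 11 genes that passed were higher in line 26 than in line 48 under CT1.0, as were 42.8% of all genes tested, and 7 of them were so on day 4, beside 54.8% of all genes.

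BMP genes were higher or not called: of 14 listed, 13 passed, 8 were higher and 0 lower, with a median of 1.01. ID1 and ID3, targets of BMP signalling, had 111 and 62.2 TPM and 90.1 and 88.8 TPM in CT1.0, against 4.94 and 7.75 TPM and 11.4 and 9.81 TPM in IWP2. Their differences were 3.55 ± 0.28 (adjusted p = 1.3e-07) and 2.97 ± 0.28 (adjusted p = 8.31e-07). The ligands BMP5 and BMP2 were higher by 3.44 ± 0.22 (adjusted p = 1.39e-08) and 1.99 ± 0.28 (adjusted p = 5.52e-05). ID2 and ID4, related to ID1, were not called. On the opposite, ventral side, only 3 of 12 listed genes passed the filter. NKX6-1, a ventral homeobox gene, stood at 1.51 and 1.35 TPM in CT1.0, against 0.0545 and 0.0282 TPM in IWP2 (1.22, adjusted p = 0.0165). Its adjusted p ran to 0.0900 without the CT1.0 library of line 26, to 0.0601 without the IWP2 library of line 26 and to 0.0774 without that of line 48. PTCH1 and HHIP, targets of SHH, were not called.

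Other transcription factors that mark position also differed. Of 14 Iroquois, MEIS, PBX and nuclear receptor genes listed, 12 passed, 8 were higher and 2 lower (1 after scaling), with a median of 1.19. The nuclear receptors NR2F2 and NR2F1 had 77.6 and 108 TPM and 189 and 208 TPM in CT1.0, against 6.48 and 13.2 TPM and 15.7 and 46.9 TPM in IWP2. Their differences were 3.16 ± 0.36 (adjusted p = 5.8e-06) and 2.82 ± 0.34 (adjusted p = 1.31e-05). IRX3 and IRX5, Iroquois genes of tissue behind the forebrain, were higher by 2.36 and 2.17, while PBX3, a cofactor of HOX proteins, was not called.

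**Figure D3:**
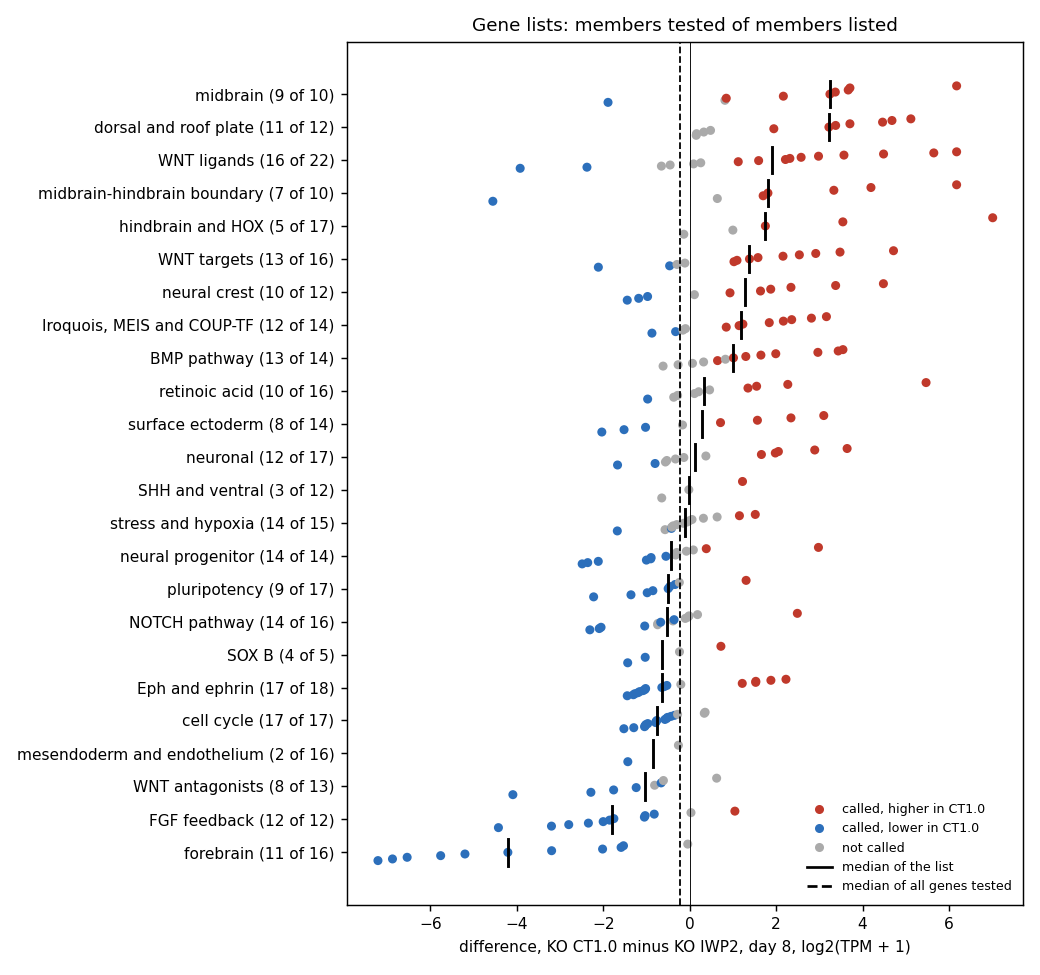
Difference between KO CT1.0 and KO IWP2 on day 8 for the members of the 24 gene lists that passed the filter, with the number passed of the number listed; each point is a gene, grey if not called, the black bar is the list's median and the dashed line the median of all genes, -0.23. The forebrain list is lowest (median -4.21), followed by FGF feedback (-1.80), and midbrain (3.24) and dorsal genes (3.22) are highest.

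Neural progenitor and SOX B genes moved in both directions. Of 4 SOX B genes tested, 1 was higher and 2 lower. POU3F2, a neural POU factor, was higher, with 43.0 and 66.6 TPM in CT1.0, against 4.30 and 8.04 TPM in IWP2 (2.98 ± 0.24, adjusted p = 1.53e-07). SOX9 and FABP7, a glial and progenitor factor and a lipid binding protein of radial glia, were lower by -2.36 ± 0.16 (adjusted p = 2.94e-08) and -2.11 ± 0.16 (adjusted p = 8.33e-08). SOX21 was lower (-1.43 ± 0.26, adjusted p = 0.000561). SOX3 was called higher by 0.72 (adjusted p = 0.0423), and that call was lost without the CT1.0 library of line 48 (0.29, adjusted p = 0.462) and without either IWP2 library (0.57 and 0.88, adjusted p = 0.218 and 0.0657). Without the CT1.0 library of line 26 the difference was 1.15.

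NOTCH pathway genes were lower or not called, with 1 exception: of 16 listed, 14 passed, 1 was higher and 6 lower (4 after scaling), with a median of -0.53, or -0.28 after scaling. DLL3, an inhibitory NOTCH ligand, had 17.7 and 27.5 TPM in CT1.0, against 3.41 and 2.84 TPM in IWP2 (2.49 ± 0.42, adjusted p = 0.000275). NOTCH1, the receptor, had 10.5 and 10.8 TPM in CT1.0, against 46.2 and 51.1 TPM in IWP2 (-2.09 ± 0.13, adjusted p = 6.45e-09). HES1 and HES5, NOTCH targets that hold progenitors back from becoming neurons, were lower by -2.05 and -2.31. The call of HES5 was lost without the CT1.0 library of line 26 (adjusted p = 0.121), without the IWP2 library of line 48 (0.0586) and with a pseudocount of 0.1 (0.0711).

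Early neuronal genes differed in part. Of 17 listed, 12 passed, 5 were higher and 2 lower (1 after scaling), with a median of 0.12. NHLH1, NEUROD4 and ELAVL4, transcription factors and an RNA binding protein of young neurons, were higher by 2.89, 1.98 and 2.05. The 2 genes called lower were STMN2 (-1.67 ± 0.31, adjusted p = 0.000718) and DCX (-0.80 ± 0.24, adjusted p = 0.0194). TUBB3, the neuronal tubulin, was not called: it had 97.3 and 239 TPM in CT1.0, against 217 and 234 TPM in IWP2, and without the CT1.0 library of line 48 it was lower by -1.21 (adjusted p = 0.00506). Under CT1.0, 11 of the 12 genes that passed were higher in line 48 than in line 26, beside 56.5% of all genes tested.

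Eph receptors and ephrins, which keep neighbouring regions of the tube apart, divided. Of 18 listed, 17 passed, 5 were higher and 11 lower (7 after scaling), with a median of -0.64. EPHA7 and EFNB3 were higher by 2.23 ± 0.19 (adjusted p = 2.61e-07) and 1.88 ± 0.12 (adjusted p = 1.85e-08). EPHA3 was higher by 1.53, or 1.02 without the CT1.0 library of line 48, and EFNB2 by 1.53. Most called members were lower, however. Among the 11 lower genes, the largest differences were those of EFNB1 (-1.44 ± 0.15, adjusted p = 3.11e-06), EPHB3 (-1.30) and EPHA4 (-1.27). Of the 17 genes, 14 were higher in line 48 than in line 26 under CT1.0, beside 56.5% of all genes tested.

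Markers of other cell types that such cultures could hold were read beside these results. Neural crest, the migratory tissue at the edge of the tube, had 10 of 12 listed genes passing, 6 higher and 3 lower (2 after scaling), with a median of 1.29. TFAP2B, a crest factor, had 20.2 and 23.9 TPM in CT1.0, against 0.014 and 0.0426 TPM in IWP2 (4.48 ± 0.44, adjusted p = 1.23e-06). PAX3, shared with the dorsal list, had 62.6 and 49.2 TPM in CT1.0, against 5.31 and 3.70 TPM in IWP2. SOX10, a defining factor of migrating crest, was at 3.82 and 2.56 TPM in CT1.0, against 0.19 and 0.0738 TPM in IWP2 (1.87, adjusted p = 0.00436). Without the CT1.0 library of line 26 the adjusted p of SOX10 was 0.0527. The summed level of the 12 crest genes was 190 and 188 TPM in CT1.0 and 225 and 212 TPM in IWP2. FOXD3, another defining crest factor, was at 2.41 and 0.462 TPM in CT1.0 and at 0 in both IWP2 libraries. The part of crest cells in the dorsal and BMP results was not tested.

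Surface ectoderm, the skin precursor, had 8 of 14 listed genes passing, 4 higher and 3 lower, with a summed level of 123 and 93.7 TPM in CT1.0 and 268 and 261 TPM in IWP2. KRT7 had 8.92 and 7.13 TPM in CT1.0, against 0.0463 and 0.0474 TPM in IWP2, while KRT18 had 23.3 and 17.6 TPM in CT1.0, against 86.7 and 85.5 TPM in IWP2. TP63, a defining factor of skin, was at 0 and 0.0551 TPM in CT1.0 and 0.0653 and 0.0217 TPM in IWP2. Mesendoderm and endothelium had 2 of 16 listed genes passing, and SOX17 and HAND1 were at 0 in all 4 libraries. GSC, a mesendoderm factor also made in anterior tissue, was lower in CT1.0, at 0.242 and 0 TPM, against 1.26 and 2.99 TPM in IWP2 (-1.43, adjusted p = 0.00169).

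Pluripotency genes were mostly lower where called, but so were all genes tested, with 4990 of 6079 called genes lower. Of 17 listed, 9 passed, 1 was higher and 7 lower (4 after scaling), with a median of -0.50, or -0.22 after scaling. POU5F1, the defining pluripotency factor, had 3.41 and 5.51 TPM in CT1.0, against 1.47 and 0.905 TPM in IWP2 (1.30 ± 0.28, adjusted p = 0.00209), and NANOG stood between 0.114 and 0.233 TPM in the 4 libraries. L1TD1 and DNMT3B, an RNA binding protein and a DNA methyltransferase of stem cells, were lower by -2.22 and -1.36.

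Cell cycle genes were lower as a list: all 17 were tested, 14 were lower (9 after scaling) and 0 higher, with a median of -0.76, or -0.49 after scaling. RRM2, which makes DNA precursors, had 40.1 and 64.1 TPM in KO CT1.0, against 130 and 167 TPM in KO IWP2 (-1.52 ± 0.21, adjusted p = 5.42e-05). E2F1, a driver of the S phase, was lower by -1.29, or -0.84 without the CT1.0 library of line 26. The replication genes MCM2 and MCM5 were lower by -1.04 ± 0.12 (adjusted p = 5.48e-06) and -1.03 ± 0.14 (adjusted p = 4.45e-05). A limma fit of only the 4 libraries did not call RRM2, E2F1 or MCM2 (adjusted p = 0.0506, 0.0954 and 0.0532). Line 26 was the lower of the CT1.0 lines in 14 of the 17 genes, beside 56.5% of all genes tested.

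Of 15 stress and hypoxia genes listed, 14 passed, 2 were higher and 2 lower (1 after scaling), with a median of -0.10. SLC2A1, the glucose transporter, had 105 and 234 TPM in CT1.0, against 487 and 517 TPM in IWP2 (-1.67, adjusted p = 0.000361), and -1.10 without the CT1.0 library of line 26. BNIP3, a mitophagy gene induced by hypoxia, had 54.7 and 74.3 TPM in CT1.0, against 28.6 and 27.7 TPM in IWP2 (1.15, adjusted p = 0.00157). The call of DDIT4 (1.52, adjusted p = 0.0145), a stress-induced inhibitor of mTOR, was lost without either CT1.0 library or the IWP2 library of line 48, with adjusted p of 0.0526, 0.0727 and 0.110. HSPA1A, a heat shock gene, was lower by -0.42 and was no longer called after scaling (adjusted p = 0.481), without the IWP2 library of line 48 (0.160), or without the CT1.0 library of line 26 (0.145) or 48 (0.0529). ATF4 was not called (-0.30, adjusted p = 0.0528) but was with the line as a block (adjusted p = 0.0290), with protein-coding genes only (0.0366) and without the IWP2 library of line 26 (0.0197).

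With a pseudocount of 0.1 the differences of 21 named genes moved by over 1.5 times, all to larger values; SP5 was then 7.80, HOXA2 6.11 and RAX -7.97. The remaining gene among the 10 highest was MUSTN1, a small nuclear protein gene known from muscle and skeleton. It had 39.4 and 67.6 TPM in CT1.0, against 0.858 and 1.16 TPM in IWP2 (4.71 ± 0.32, adjusted p = 2.12e-08).

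Across the genes tested, log2 levels correlated at 0.951 between the CT1.0 lines, at 0.949 between the IWP2 lines and at 0.906 to 0.914 between labels; genes are not independent replicates. At least 1 apart on the log2 scale were 1885 genes between the KO CT1.0 lines, 900 higher in line 26 and 985 in line 48, and 1966 between the KO IWP2 lines. Among WT lines the numbers were 1411 under CT1.0 and 1482 under IWP2. Under CT1.0 line 26 was higher in 42.8% of all genes tested and line 48 in 56.5%. Line 26 was higher in 7 of 8 surface ectoderm genes, in 12 of 16 WNT ligand genes and in WNT1 by 2.29 times. Line 48 was higher in 9 of 10 retinoic acid genes and in HOXA2 by 2.24 times. These are descriptions of 1 library per line.

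Whether the effect of the label depended on SOX1 was tested as an interaction: the difference in KO minus the same difference in WT. The KO libraries are those described above. Dorsal genes such as MSX2 and GDF7, WNT1 and EN1 had higher effects in KO, and FEZF2 and NTN1 lower ones. Of 22887 genes tested, 311 had a higher effect in KO (1.36%) and 789 a lower one (3.45%), 4.81% in all, with a median of -0.09 over all genes. After scaling the counts were 419 (1.83%) and 451 (1.97%), or 3.80%, and the median was 0.02. The count is unstable. A fit of only these 8 libraries called 0 genes with limma, where 4241 had an unadjusted p under 0.05, against 4946 in the fit of all libraries. The count of 1100 was 197 without the KO CT1.0 library of line 26, 2522 without that of line 48, and 341 without the KO IWP2 library of line 48. It was 264 and 691 without the WT CT1.0 library of line 1 or 2 and 547 and 289 without the WT IWP2 library of line 1 or 2.

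OTX2 was lowered in both genotypes but less in KO. It had 82.6 and 50.7 TPM in KO CT1.0 and 6.19 and 5.99 TPM in WT CT1.0, while KO IWP2 held 229 and 256 TPM and WT IWP2 241 and 226 TPM, a difference of effects of 3.16 (adjusted p = 0.00377). WNT1 had 132 and 57.6 TPM in KO CT1.0, against 7.48 and 4.98 TPM in WT CT1.0, with WT IWP2 at 0.0691 and 0.14 TPM (3.48, adjusted p = 0.00247). EN1 had 22.3 and 13.4 TPM in KO CT1.0, against 2.74 and 1.81 TPM in WT CT1.0 and 0.0283 and 0.0285 TPM in WT IWP2 (2.54, adjusted p = 0.0154). The EN1 call was lost without the KO CT1.0 library of line 26 (adjusted p = 0.0988), without the KO IWP2 library of line 48 (0.0539) and without the WT IWP2 library of line 2 (0.0566). FGF17 had 13.8 and 16.5 TPM in KO CT1.0, against 1.74 and 1.65 TPM in WT CT1.0 and 0.439 and 0.0985 TPM in WT IWP2 (2.24, adjusted p = 0.00269), and with a pseudocount of 0.1 it was not called (adjusted p = 0.183).

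MSX2, ZIC1, GDF7 and ZIC4 had the 4 highest values of the genes named, at 3.93, 3.93, 3.92 and 3.82. MSX2 had 40.0 and 25.6 TPM in KO CT1.0 and 0.0408 and 0.594 TPM in KO IWP2, against 1.74 and 0.597 TPM in WT CT1.0 and 0.237 and 0.255 TPM in WT IWP2. GDF7 had 55.8 and 24.1 TPM in KO CT1.0, against 1.80 and 0.998 TPM in WT CT1.0. ZIC1, not called between labels in KO, was at 74.4 and 51.3 TPM in KO CT1.0 and 53.6 and 57.6 TPM in KO IWP2, against 5.23 and 0.728 TPM in WT CT1.0 and 49.3 and 39.0 TPM in WT IWP2. ZIC4 gave the same order. Of the dorsal list, 10 of 11 genes tested had a higher effect in KO and 0 a lower one. The counts were 8 and 0 of 17 WNT ligand genes, 6 and 0 of 9 midbrain genes, and 4 and 0 of 7 boundary genes. Of 8 surface ectoderm genes, the markers of another cell type, 4 had a higher effect in KO and 0 a lower one, and their part in the dorsal result was not tested. Other lists leaned the other way, with 0 higher and 3 lower of 4 SOX B genes, 0 and 3 of 14 neuronal genes, 1 and 3 of 9 WNT antagonists and 1 and 3 of 14 progenitor genes. The lower SOX B genes include SOX1, the targeted gene, whose lower effect follows from the knockout design.

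SP5 had 21.8 and 30.3 TPM in KO CT1.0, against 1.78 and 0.782 TPM in WT CT1.0 and 0.0374 and 0.038 TPM in WT IWP2 (3.61, adjusted p = 0.0162). The SP5 call was lost with a pseudocount of 0.1 (adjusted p = 0.0841) and without 1 of 4 libraries: KO CT1.0 of line 26 (0.0538), KO IWP2 of line 48 (0.0597), WT CT1.0 of line 2 (0.0529) and WT IWP2 of line 2 (0.0597).

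FEZF2 and NTN1, a guidance cue of the ventral midline, were higher in both WT CT1.0 libraries than in any other library of the 4 groups. FEZF2 had 0.614 and 1.67 TPM in KO CT1.0 and 6.12 and 8.88 TPM in KO IWP2, against 16.3 and 23.4 TPM in WT CT1.0 and 6.82 and 6.77 TPM in WT IWP2 (-3.41, adjusted p = 0.0024). NTN1 had 0.718 and 5.73 TPM in KO CT1.0 and 6.0 and 8.70 TPM in KO IWP2, against 34.9 and 32.7 TPM in WT CT1.0 and 7.40 and 7.36 TPM in WT IWP2 (-3.33, adjusted p = 0.00789). SFRP4 had 0.937 and 2.28 TPM in KO CT1.0 and 3.18 and 3.68 TPM in KO IWP2, against 41.6 and 30.3 TPM in WT CT1.0 and 3.79 and 3.05 TPM in WT IWP2 (-3.86, adjusted p = 0.0021, or 0.0612 with a pseudocount of 0.1). SOX1 itself had a lower effect in KO (-3.0, adjusted p = 0.0052). NES also had a lower effect in KO (-1.65, adjusted p = 0.0315), with 1025 and 893 TPM in WT CT1.0 and 388 and 373 TPM in WT IWP2.

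The NES call was lost without any 1 of 6 libraries, with adjusted p of 0.190 (KO CT1.0 of line 26), 0.108 (KO IWP2 of line 48), 0.117 and 0.0563 (WT CT1.0 of lines 1 and 2), and 0.0730 and 0.101 (WT IWP2 of lines 1 and 2). MIR217HG, the host transcript of a microRNA, had 2.73 and 15.9 TPM in KO CT1.0 and 6.11 and 3.11 TPM in KO IWP2, against 85.8 and 67.3 TPM in WT CT1.0 and 4.39 and 2.72 TPM in WT IWP2 (-3.55, adjusted p = 0.0278). It lost its call without any of 7 libraries, at adjusted p of 0.0527 to 0.162. NPIPA5 belongs to a family of near-identical copies, so its value (-3.99, adjusted p = 0.00351, or -8.80 with a pseudocount of 0.1) is uncertain. It was listed at 0 in both KO CT1.0 libraries.

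For other genes no difference by genotype was called. HOTAIRM1 had 114 and 161 TPM in WT CT1.0 and 0 and 0.462 TPM in WT IWP2 (0.19, adjusted p = 0.929). HOXA2 had 25.6 and 27.6 TPM in WT CT1.0 and 0.0898 and 0 TPM in WT IWP2 (-1.18, adjusted p = 0.387). SIX3 had 0.145 and 0.155 TPM in WT CT1.0 and 126 and 128 TPM in WT IWP2 (-0.08, adjusted p = 0.926). A p that misses the threshold does not show that the effects are equal.

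**Figure D4:**
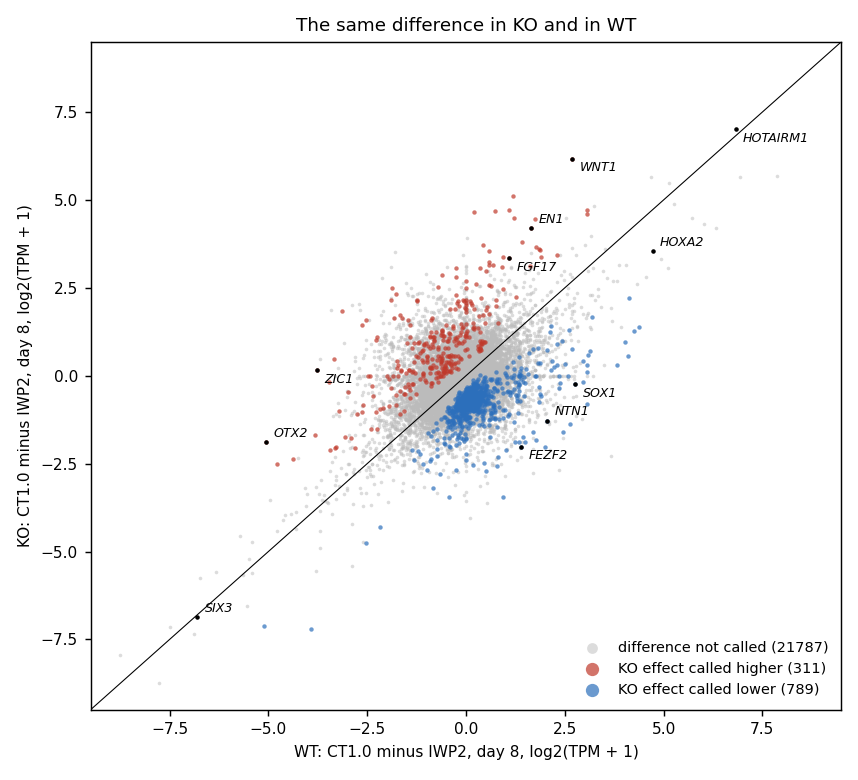
Difference between CT1.0 and IWP2 on day 8 in KO (vertical axis) and in WT (horizontal axis), both on log2(TPM + 1), for 22887 genes; the line marks equal effects, and genes are coloured where the difference between genotypes was called (311 higher in KO, 789 lower), with the labelled genes in black. WNT1, EN1, FGF17, OTX2 and ZIC1 lie above the line, FEZF2, NTN1 and SOX1 below it, and SIX3 and HOTAIRM1 close to it.

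On day 4 SIX3, LHX2, EN1 and WNT1 already differed between the labels in KO, while ID1 and WNT8B were lower under CT1.0 and FGFR2 was not called. Of 20479 genes tested on day 4, 1582 were higher under CT1.0 (7.72%) and 2645 lower (12.9%), 20.6% in all, with a median of -0.05; after scaling 9.13% were higher and 10.2% lower, or 19.3%. The total of 4227 was 2581 and 2572 without the CT1.0 library of line 26 or 48 and 1987 without the IWP2 library of line 48, and a fit of only the 4 libraries called 278. SIX3 had 0.32 and 0.41 TPM in KO CT1.0 on day 4, against 148 and 139 TPM in KO IWP2 on day 4. EN1 had 39.9 and 17.9 TPM in CT1.0 on day 4 and was listed at 0 in both IWP2 libraries of that day.

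The change of the effect between the days, whose day 8 libraries are those described above, was tested as day 8 minus day 4. Of 23166 genes, 326 had a higher effect on day 8 (1.41%) and 1059 a lower one (4.57%), 5.98% in all, with a median of -0.18. After scaling the counts were 576 (2.49%) and 553 (2.39%), or 4.87%, and the median was -0.01. The total of 1385 was 805 without the IWP2 library of line 48 on day 8, and 846 and 906 without the CT1.0 or IWP2 library of line 26 on day 4. A fit of only the 8 libraries compared called 61. GDF7 rose late. In CT1.0 its day 8 libraries held 55.8 and 24.1 TPM, against 0.0774 and 0.0988 TPM in those of day 4 (5.09, adjusted p = 1.98e-06), with at most 0.119 TPM in IWP2 on either day. FGFR2 had 64.4 and 77.4 TPM under CT1.0 and 1.55 and 1.32 TPM under IWP2 on day 8, against 42.2 and 38.4 TPM under CT1.0 and 39.2 and 41.4 TPM under IWP2 on day 4. Under IWP2 it was thus low on day 8 and not on day 4.

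For some genes the sign of the difference was not the same on the days. ID1 had 111 and 62.2 TPM under CT1.0 and 4.94 and 7.75 TPM under IWP2 on day 8, against 7.48 and 5.68 TPM under CT1.0 and 13.1 and 14.4 TPM under IWP2 on day 4 (4.51, adjusted p = 6e-06). LMX1A, in contrast, was low with overlapping labels on day 4, at 1.59 and 0.437 TPM under CT1.0 and 0.901 and 1.48 TPM under IWP2. Its effect was higher on day 8 by 3.88 (adjusted p = 0.000389). WNT8B and CDH6, a cadherin of the dorsal tube, also had higher effects on day 8, by 4.54 and 3.96. With a pseudocount of 0.1 the values of WNT8B and LMX1A were 9.19 and 6.53. Of the dorsal list and of the BMP list, 8 of 11 and 8 of 13 genes had a higher effect on day 8, and 0 and 1 a lower one. Of 14 stress and hypoxia genes 1 had a higher effect and 6 a lower one, and of 17 Eph and ephrin genes 4 and 6.

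Among the lowest day differences, DLK1 had 49.9 and 95.3 TPM under CT1.0 and 3260 and 3350 TPM under IWP2 on day 8, against 260 and 434 TPM under CT1.0 and 514 and 626 TPM under IWP2 on day 4 (-4.81, adjusted p = 0.000246). MEG3, a long RNA imprinted together with DLK1, had 0.764 and 0.878 TPM under CT1.0 and 47.5 and 30.3 TPM under IWP2 on day 8, against 5.53 and 5.55 TPM under CT1.0 and 9.11 and 7.46 TPM under IWP2 on day 4 (-3.92, adjusted p = 1.46e-05). FZD5, HTR2C, a serotonin receptor, and BEGAIN also had lower effects on day 8, by -3.82, -4.14 and -4.24.

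No change between the days was called for EN1, WNT1, HOXA2, FGF17, SIX3, NES or OTX2. Leaving out single libraries moved some: without the CT1.0 library of line 48 on day 4, HOXA2 was called at 2.62 (adjusted p = 0.00167) and OTX2 at -2.03 (adjusted p = 0.0205), and without the CT1.0 library of line 48 on day 8 WNT1 was called at 1.99 (adjusted p = 0.0295). On day 4 HOXA2 had 0.899 TPM in line 26 and 11.3 TPM in line 48 under CT1.0.

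**Figure D5:**
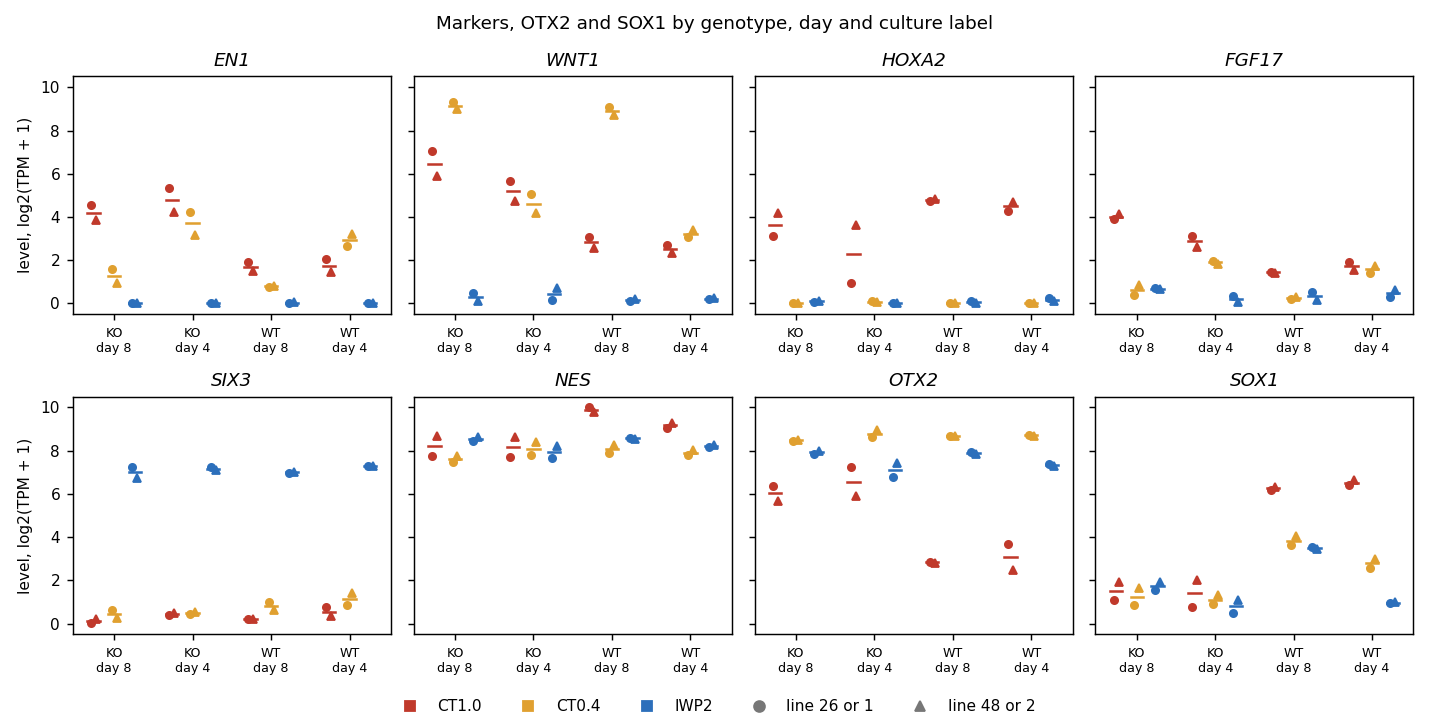
Levels of the 6 marker genes, OTX2 and SOX1 as log2(TPM + 1) by genotype, day and label; circles are lines 26 or 1, triangles lines 48 or 2, and bars the mean of 2 libraries. HOXA2 is at or near 0 in every group but CT1.0, SIX3 is high in every IWP2 group, and WNT1 on day 8 is highest under CT0.4 (632 and 511 TPM in KO).

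KO cells under CT0.4 differed from the same CT1.0 libraries in regional genes. Of 20612 genes tested in KO on day 8, 1324 were higher under CT1.0 than under CT0.4 (6.42%) and 5470 lower (26.5%), 33.0% in all, with a median of -0.23. After scaling the counts were 2343 (11.4%) and 2847 (13.8%), or 25.2%, and the median was -0.0035. A fit of only the 4 libraries called 2925 genes. Boundary genes were mostly higher under CT1.0, and midbrain, roof plate and WNT ligand genes mostly lower. Of 7 boundary genes tested, 6 were higher and 1 lower, while of 11 dorsal genes 1 was higher and 9 lower, and of 16 WNT ligand genes 1 was higher and 10 lower. Of 9 midbrain genes 1 was higher and 7 lower, and of 4 hindbrain and HOX genes 3 were higher and 1 lower.

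HOTAIRM1 had 147 and 178 TPM under CT1.0, against 0.131 and 0 TPM under CT0.4 (7.26, adjusted p = 9.06e-08), and HOXA2 7.60 and 17 TPM under CT1.0, listed at 0 in both CT0.4 libraries (3.64, or 6.84 with a pseudocount of 0.1). CYP26A1 had 0.28 and 0.146 TPM under CT0.4 (5.46). EN1 had 22.3 and 13.4 TPM under CT1.0, against 2.05 and 0.914 TPM under CT0.4 (2.92, adjusted p = 1.68e-05), and FGF17 0.319 and 0.804 TPM under CT0.4. PAX8 had 29.3 and 26.9 TPM under CT1.0, against 0.561 and 0.471 TPM under CT0.4 (4.26, adjusted p = 5.92e-06). HES3, a HES gene of the boundary, and PAPLN, a matrix protein gene, were also among the 6 highest, at 4.62 and 3.84.

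In the other direction, WNT1 was lower under CT1.0, at 132 and 57.6 TPM, against 632 and 511 TPM under CT0.4 (-2.69, adjusted p = 3e-05). OTX2 had 353 and 359 TPM under CT0.4 (-2.44, adjusted p = 7.24e-05). TTR, a transport protein known from choroid plexus, a roof plate derivative, was at 0 and 0.338 TPM under CT1.0, against 103 and 65.5 TPM under CT0.4 (-6.17, adjusted p = 2.9e-09). TAC1, a neuropeptide gene, FERD3L, a midbrain floor and roof factor, VIT, a matrix gene, GDF6, a BMP ligand, and CCL2, a chemokine, were the other 5 lowest, at -5.83, -5.59, -5.34, -5.13 and -4.84. SIX3 did not pass the filter here, with 0.531 and 0.2 TPM under CT0.4. NES was not called (0.61, adjusted p = 0.126), but was with the line as a block (adjusted p = 0.0140), after scaling (0.0307), with ribosomal protein and mitochondrial genes left out (0.0319) and without the CT1.0 library of line 26 (0.0193).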

How the data were processed

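Poly(A) RNA of 28 libraries in 14 groups was sequenced as paired ends on HiSeq2000 or X-ten, per the labels' protocols, which do not tie libraries to instruments, and no instrument term was fitted. A table of TPM was deposited by the authors. CASAVA 1.7, Salmon 0.8.2 and hg38 are named per the submitters' processing notes, without roles; the annotation release behind the TPM is not given there. All 28 columns matched a sample. TPM keeps no depth.

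From the TPM, log2(TPM + 1) was fitted with limma 3.58.1 (R 4.3.3, data.table, version 1.17.8; intensity trend), 1 mean per group over all 28 libraries, 27912 genes and 14 residual degrees of freedom, after tests on simulated data. P-values are two-sided, adjusted by Benjamini-Hochberg over genes with at least 1 TPM in at least 2 libraries of the groups compared. An exact permutation test of 2 against 2 libraries cannot go below p = 0.333 and was not used. Figures and promoter windows used Python 3.11.15, pandas 2.3.3 and matplotlib 3.10.9. Gene positions are those of GENCODE 29 (GRCh38).

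The members, the 24 gene lists and the tests were chosen with earlier results of these data known. Named were the markers and SOX1, and per list up to 4 called genes by size and 2 uncalled genes by level. For CT1.0 against IWP2 on day 8, the 10 highest and 10 lowest called genes at least 1 apart with libraries that do not overlap were named. In the other comparisons it was the 6 highest and 6 lowest called genes, without the threshold of 1. There, libraries that do not overlap were asked for only against CT0.4. Clone, pseudogene, antisense and ribosomal protein names and 275 symbols on more than 1 row were left out of the highest and lowest. Some genes the rule names are not reported here; they stay in every fit and count. OTX2 was added, and short RNA names left out (0, 11, 7 and 1 in the comparisons with IWP2, between genotypes, between days and with CT0.4), after values were seen, as were single genes named for their absence (FOXD3, TP63, SOX17, HAND1, NANOG). EFNB1, EPHB3, EPHA4, STMN2 and DCX were also added after values were seen, as list members called lower. They are outside the counts of named genes.

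Line numbers recur across groups and were read as lines, so the line served as a block in an alternative fit with 12 residual degrees of freedom. Line differences of the KO groups correlated at -0.0572 to 0.204 over the 10333 genes averaging 10 TPM or more, above 0.1 in 8 of 21 pairs of groups, and at 0.164 for CT1.0 and IWP2 on day 8. Other alternatives were a pseudocount of 0.1, no filter, adjustment over all genes fitted, median-ratio scaling, a fit of only the libraries compared, a threshold of 1 on the log2 scale, robust variances, protein-coding genes only, each library left out, and, added after seeing the data, ribosomal protein and mitochondrial genes left out.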

Additional observations from a re-analysis of the deposited data

Results flagged for a closer look

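The effect of CT1.0 over IWP2 on day 8 differed between KO and WT, by the interaction term of limma, in 15 genes named by rule, each value being the KO effect minus the WT effect on the log2(TPM + 1) scale. It was higher in KO for MSX2 (3.93), ZIC1 (3.93), GDF7 (3.92), ZIC4 (3.82), SP5 (3.61), WNT1 (3.48), OTX2 (3.16), EN1 (2.54) and FGF17 (2.24). It was lower in KO for NPIPA5 (-3.99), SFRP4 (-3.86), MIR217HG (-3.55), FEZF2 (-3.41), NTN1 (-3.33) and NES (-1.65). All 15 calls were lost in a fit of only the libraries compared. Those of FGF17, SFRP4, SP5 and MIR217HG were also lost with a pseudocount of 0.1.

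The effect in KO differed between day 8 and day 4 in 11 named genes, each value being the day 8 effect minus the day 4 effect. It was higher on day 8 for GDF7 (5.09), FGFR2 (4.88), WNT8B (4.54), ID1 (4.51), CDH6 (3.96) and LMX1A (3.88). It was lower on day 8 for DLK1 (-4.81), BEGAIN (-4.24), HTR2C (-4.14), MEG3 (-3.92) and FZD5 (-3.82). The groups of 2 libraries were too small to look for single libraries that stand apart.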

How the results depend on the processing

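A fit of only the libraries compared called 1102 genes between KO CT1.0 and KO IWP2 on day 8, 0 for the genotype difference, 61 for the day difference, 2925 against CT0.4 and 278 on day 4. Asking also for a log2 difference of at least 1 left 1720, 538, 853, 2197 and 1226 genes in the same order. Of the 91 named genes called between KO CT1.0 and KO IWP2 on day 8, 24 lost their call in the fit of only the libraries compared. Among these were PAX6, NR2F1, ELAVL4, NEUROD4, POU5F1 and SLC2A1. Median-ratio scaling gave 3917 genes between KO CT1.0 and KO IWP2 on day 8, and leaving out ribosomal protein and mitochondrial genes gave 3990. Robust variances gave 678 for the genotype difference. Leaving out 1 library at a time gave 3398 to 5566 genes for the comparison with IWP2, 197 to 2522 for the genotype difference, 805 to 1372 for the day difference, 4609 to 6040 against CT0.4 and 1987 to 3412 on day 4. With the line as a replicate block the counts were 6191, 1466, 1409, 6867 and 4408, and among named genes the block changed the calls of ATF4 and, against CT0.4, NES. The cause of these shifts was not tested. Signs turned in uncalled genes. After median-ratio scaling these were EMX2 (0.15), TCF7 (0.10), ID2 (0.0053), PTCH1 (0.24), PBX3 (0.17), PTN (0.20), HES4 (0.17), EFNA3 (0.056), GRHL1 (0.042) and HSPA5 (0.26). Without ribosomal protein and mitochondrial genes they were EMX2 (0.12), TCF7 (0.062), PTCH1 (0.20), PBX3 (0.12), PTN (0.15), HES4 (0.12), EFNA3 (0.0092), GRHL1 (0.013) and HSPA5 (0.22). Leaving out 1 library at a time gave ranges that held both signs. They were -0.56 to 0.46 for EMX2, -0.79 to 0.14 for NES, -0.65 to 0.17 for SOX1, -0.72 to 0.50 for TCF7, -0.41 to 0.37 for PTCH1, -0.11 to 0.41 for ZIC1, -0.024 to 0.67 for ID4, -1.21 to 0.083 for TUBB3, -0.063 to 0.28 for SNAI1 and -0.073 to 0.055 for HSPA5, with both ends set by a CT1.0 library. They were -0.47 to 1.75 for PAX8, -0.41 to 0.47 for DUSP6, -0.77 to 0.50 for HOXB3, -0.0901 to 0.31 for RARG, -0.29 to 0.098 for PBX3, -0.36 to 0.21 for PTN, -0.29 to 0.0801 for HES4 and -0.68 to 0.35 for GRHL1, with both ends set by an IWP2 library. SIX3 ran over -0.34 to 0.18 in the genotype difference and -0.41 to 0.11 in the day difference, and HOXA2 over -0.073 to 2.62 in the day difference, where FGF17 was -0.40 with a pseudocount of 0.1. Depth is unknown, and 2 libraries a group limit the precision of every value.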
